A study of Homo sapiens with 28 samples.

Results

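The 9 genes described here encode the enzymes that build serine from glycolysis and pass its side-chain carbon to folate. They were taken as the rows of the gene count table whose symbol was PHGDH, PSAT1, PSPH, SHMT1, SHMT2, MTHFD1, MTHFD2, MTHFD1L or ALDH1L2, and all 9 were found among 58278 rows. The RNA came from HCT116, a human colorectal carcinoma cell line that carried a Luciferase-GFP reporter and was grown under the skin of male NOD SCID mice, an immunodeficient strain, injected at 5 weeks of age. For 23 days the mice received by mouth vehicle (Control), the CDK4/6 inhibitor Palbociclib at 100 mg/kg/day, the glutaminase inhibitor Telaglenastat (spelled Telaglenestat in the series text) at 150 mg/kg/day, or both drugs at these doses (Combination). Residual tumors gave 3 Control, 5 Palbociclib, 4 Telaglenastat and 4 Combination libraries. Cell lines explanted from residual tumors and grown without drug gave 3 libraries for each of the same 4 treatments, called cultures below. All 28 libraries therefore go back to 1 cell line, tumors also hold host cells, and the labels do not say which tumor gave which culture.

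De novo serine synthesis runs in sequence through PHGDH, PSAT1 and PSPH. PHGDH oxidizes the glycolytic intermediate 3-phosphoglycerate, PSAT1 transfers an amino group from glutamate, and PSPH removes the phosphate. Serine hydroxymethyltransferase then moves a carbon from serine to tetrahydrofolate and leaves glycine, through SHMT1 in the cytosol and SHMT2 in mitochondria. In mitochondria MTHFD2 and MTHFD1L carry this carbon on to formate, whereas ALDH1L2 oxidizes it to carbon dioxide and yields NADPH. In the cytosol the trifunctional MTHFD1 uses formate to rebuild the folate cofactors needed for purines and thymidylate. PSAT1 consumes glutamate, the product of glutaminase, and in many tumors genes of this pathway are known targets of the stress-responsive transcription factor ATF4 and of MYC.

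Promoter sequence is shown for the member called lower on both scales described below in all 3 treated tumor groups (PHGDH), for the pair with the widest difference between tumors and cultures (PSAT1 and MTHFD2) and for the only member with a window that held both motifs searched (MTHFD1L). RefSeq windows of 300 bases (GRCh38.p14, 250 before to 50 after the annotated start) were matched for 6 of the 9 members. TGATGNAA, the composite element bound by ATF4 with C/EBP factors, and the E-box CACGTG, bound by MYC among others, were searched on both strands. The 250 bases before each start follow, with motif matches in capitals.
PHGDH chr1:119711684-119711933, + strand: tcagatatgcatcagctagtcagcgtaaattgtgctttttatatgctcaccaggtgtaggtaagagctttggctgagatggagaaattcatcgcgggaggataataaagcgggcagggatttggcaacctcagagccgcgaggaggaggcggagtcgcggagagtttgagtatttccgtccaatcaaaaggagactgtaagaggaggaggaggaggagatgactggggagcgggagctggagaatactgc
PSAT1 chr9:78296875-78297124, + strand: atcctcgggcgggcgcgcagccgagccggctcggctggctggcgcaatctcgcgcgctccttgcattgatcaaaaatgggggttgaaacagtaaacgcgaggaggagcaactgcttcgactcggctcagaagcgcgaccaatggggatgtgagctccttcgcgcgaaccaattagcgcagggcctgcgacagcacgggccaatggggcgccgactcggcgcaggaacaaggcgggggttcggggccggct
MTHFD2 chr2:74198365-74198614, + strand: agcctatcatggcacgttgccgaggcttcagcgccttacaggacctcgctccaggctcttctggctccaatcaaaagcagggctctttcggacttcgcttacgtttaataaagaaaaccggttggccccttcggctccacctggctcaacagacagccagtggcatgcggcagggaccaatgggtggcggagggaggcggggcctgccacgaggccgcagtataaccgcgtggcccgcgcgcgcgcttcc
MTHFD1L chr6:150866236-150866485, + strand: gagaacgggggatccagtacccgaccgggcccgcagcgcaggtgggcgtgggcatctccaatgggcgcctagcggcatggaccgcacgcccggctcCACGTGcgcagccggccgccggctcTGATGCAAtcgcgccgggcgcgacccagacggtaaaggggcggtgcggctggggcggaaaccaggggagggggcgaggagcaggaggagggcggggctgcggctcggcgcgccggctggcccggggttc
TGATGNAA was present in 3.62% and CACGTG in 7.26% of 35116 promoter windows of this length. MTHFD1L had 4 windows, of which 3 that overlap held both motifs and the other held neither. In the MTHFD1L window shown, CACGTG began 154 and TGATGNAA 129 bases before the start, without overlap. In the MTHFD1 window CACGTG began 15 bases before the start. Neither motif was found in the windows of PHGDH, PSAT1, MTHFD2 or SHMT1, which says only that these letters are not in these windows.

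Library totals were 6273834 to 10617936 counts in tumors and 7198540 to 13815675 in cultures, and all 9 members passed the filter on low counts in both. Tumor libraries differed in how strongly expression followed the GC content of genes. The slope, in log2 units per standard deviation of GC content, was 0.249 to 0.261 in Control, 0.0959 to 0.366 in Palbociclib, -0.391 to -0.305 in Telaglenastat and -0.288 to -0.161 in Combination tumors. It separated Telaglenastat and Combination tumors from the others without overlap, so that trend and treatment cannot be told apart. Tumor calls on the enzymes are therefore given as counted and after the trend of each library on GC content and length was removed (called corrected). Where tumor groups are said not to overlap, this describes levels as counted, without the share of all genes that separate. The exons of the members span GC contents from 42.1% for ALDH1L2, 43.1% for MTHFD2 and 43.7% for PSAT1 to 56.2% for PHGDH and 57.4% for SHMT2.

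PHGDH (ENSG00000092621.11, chr1:119648411-119744226, + strand, hg38), the entry enzyme of serine synthesis, was lower than Control in all 3 treated tumor groups. Its level in CPM (read counts per library, brought to a common library size within tumors) was 50.3, 55.7 and 50.2 in the Control tumors. With Palbociclib it was 38.2, 18.3, 31.6, 30.4 and 35.3 CPM. Every Palbociclib tumor was below every Control tumor. With Telaglenastat the levels were 25.1, 14.9, 14.3 and 17.4 CPM, and with the Combination 13.2, 8.06, 9.37 and 12.5 CPM. The Combination tumors lay below all the other tumors. The order of group means was Control (52.1 ± 3.12, SD, n = 3), Palbociclib (30.8 ± 7.64, n = 5), Telaglenastat (17.9 ± 4.96, n = 4) and Combination (10.8 ± 2.46, n = 4). The ranges of Palbociclib and Telaglenastat overlapped, since 1 Telaglenastat tumor was above the lowest Palbociclib tumor.

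The log2 fold change of PHGDH against Control was -0.76 ± 0.19 with Palbociclib (SE, adjusted p = 0.0168), -1.54 ± 0.21 with Telaglenastat (adjusted p = 4.53e-06) and -2.27 ± 0.22 with the Combination (adjusted p = 1.35e-07), a 4.84-fold difference for the last. These are quasi-likelihood tests of edgeR, with p adjusted over all genes tested. Corrected, the values were -0.79 ± 0.16 (adjusted p = 0.00319), -0.85 ± 0.18 (adjusted p = 0.00254) and -1.65 ± 0.19 (adjusted p = 3.19e-06). Correction ended none of the 3 calls and brought the Telaglenastat difference close to that of Palbociclib. PHGDH was also lower with the Combination than with Palbociclib (-1.52 ± 0.20, adjusted p = 4.74e-06, corrected -0.86 ± 0.18, adjusted p = 0.00204). Against Telaglenastat the Combination value was -0.73 ± 0.22, adjusted p = 0.0238, corrected -0.80 ± 0.19, adjusted p = 0.00676.

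In the Palbociclib comparison the call on PHGDH as counted rested on all 3 Control tumors. Without Control replicate 1, 2 or 3 the adjusted p was 0.0534, 0.0927 and 0.0517, whereas the corrected call was kept without any 1 of the 8 libraries. In 1 fit of all 28 libraries the adjusted p as counted was 0.261, with the log2 fold change again at -0.76. The call of the Combination against Telaglenastat was lost without Telaglenastat replicate 1 (adjusted p = 0.106), Combination replicate 2 (0.0853) or Combination replicate 3 (0.0765). It was also lost in the fit of all 28 libraries (adjusted p = 0.217), where the log2 fold change was -0.74.

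Bulk RNA cannot separate fewer cells that express a gene from less RNA per cell. Markers of cell types moved between the tumor groups. The summed level of 6 fibroblast markers, of which 4 or 5 had counts and LUM was at 0, was 151 to 192 CPM in Control, 109 to 187 in Palbociclib, 48.0 to 61.1 in Telaglenastat and 95.1 to 142 in Combination tumors. DCN was under 1 CPM in every tumor group, and at 0 in all but Palbociclib tumors. PDGFRB was under 1 CPM in all but Palbociclib tumors. Outside Palbociclib tumors the sum thus came almost wholly from the collagen genes COL1A1, COL1A2 and COL3A1. The sum of 5 leukocyte markers, with PTPRC and CD14 under 1 CPM, was 14.4 to 19.6, 22.2 to 30.6, 2.71 to 9.91 and 9.68 to 16.7 CPM in the same order, and that of 4 endothelial markers, with CDH5 at 0, did not pass 2.57 CPM. All 5 epithelial markers were present, with sums of 2619 to 3157, 2879 to 3990.1, 1553 to 1712 and 2253 to 2548 CPM. Telaglenastat tumors had the lowest median of the fibroblast, leukocyte and epithelial sums. These sums are as counted, without correction for the GC trend that separates Telaglenastat and Combination tumors from the others. The host is a mouse and the only build named is the human hg38, so the cells behind these counts are not known. The part of these cell types in the results on the enzymes was not tested.

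**Figure D1:**
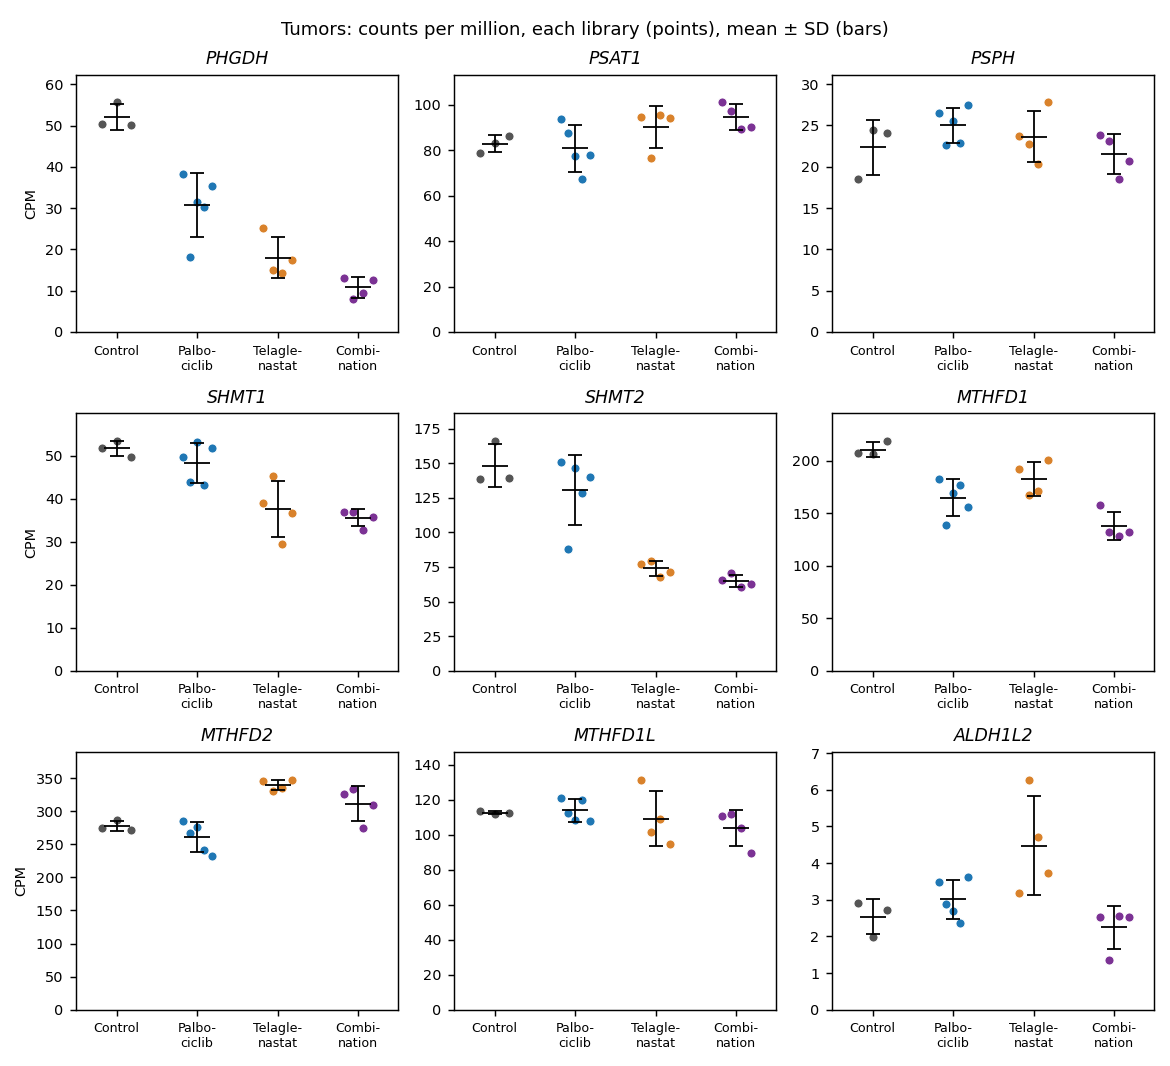
Level of each enzyme in every tumor, in CPM scaled within tumors, by treatment (horizontal axis). Points are libraries, and the bars give the mean and 1 SD. PHGDH goes from 50.2 to 55.7 CPM in Control to 8.06 to 13.2 CPM in Combination tumors, while the ranges of PSPH overlap between all groups.

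The enzymes that follow PHGDH in the same pathway did not share its difference. PSAT1 (ENSG00000135069.13, chr9:78297143-78330093, + strand) was 78.9, 83.3 and 86.4 CPM in Control tumors, 67.4 to 93.8 (median 77.7) with Palbociclib, 94.8, 76.5, 95.5 and 94.2 with Telaglenastat, and 101, 97.2, 89.5 and 90.2 with the Combination. Combination tumors lay above Control tumors, yet the log2 fold change of 0.19 ± 0.10 was not past the threshold (adjusted p = 0.138) and was -0.03 ± 0.09 corrected. PSAT1 passed only for Combination against Palbociclib (0.22 ± 0.09, adjusted p = 0.0434), and this call ended after correction, with the direction turned (-0.02 ± 0.08, adjusted p = 0.923). It was also lost without Palbociclib replicate 3, 4 or 5 or Combination replicate 1 or 2 (adjusted p from 0.0813 to 0.124). PSPH (ENSG00000146733.13, chr7:56011051-56051604, - strand) had overlapping groups, with 18.5 to 24.5 CPM in Control, 22.6 to 27.4 (median 25.6) in Palbociclib, 20.3 to 27.8 in Telaglenastat and 18.5 to 23.8 in Combination tumors. Its adjusted p values ran from 0.144 to 0.767 over the 5 tumor comparisons.

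SHMT2 (ENSG00000182199.10, chr12:57229327-57234935, + strand), the mitochondrial hydroxymethyltransferase, was lower with Telaglenastat as counted. It was 139, 166 and 139 CPM in Control tumors, 151, 87.9, 146, 129 and 139.7 with Palbociclib, 77.5, 79.0, 67.7 and 71.6 with Telaglenastat, and 65.6, 70.5, 60.8 and 62.6 with the Combination. All tumors given Telaglenastat, alone or combined, were below all those not given it. The log2 fold change against Control was -1.001 ± 0.13, adjusted p = 2.86e-06 with Telaglenastat and -1.19 ± 0.13, adjusted p = 6.01e-07 with the Combination. Correction reduced these to -0.14 ± 0.10, adjusted p = 0.404 and -0.47 ± 0.10, adjusted p = 0.00155, so that only the Combination call was kept. Corrected SHMT2 was also lower with the Combination than with Telaglenastat (-0.33 ± 0.10, adjusted p = 0.0261), where the value as counted was -0.19 ± 0.13, adjusted p = 0.332. Against Palbociclib it stood at -1.01 ± 0.12, adjusted p = 1.01e-06, as counted and -0.27 ± 0.09, adjusted p = 0.0484, corrected. That corrected call against Palbociclib was lost without Palbociclib replicate 1, 3, 4 or 5 or Combination replicate 3 or 4 (adjusted p from 0.0568 to 0.166). The corrected call against Telaglenastat was lost without Telaglenastat replicate 1 or 2 or Combination replicate 3 or 4 (adjusted p from 0.0535 to 0.0952).

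SHMT1 (ENSG00000176974.19, chr17:18327860-18363563, - strand), the cytosolic enzyme, moved less. It was 51.9, 53.5 and 49.8 CPM in Control tumors, 43.2 to 53.2 (median 49.7) with Palbociclib, 39.1, 45.3, 29.5 and 36.6 with Telaglenastat and 36.8, 36.9, 32.7 and 35.9 with the Combination. Telaglenastat and Combination tumors were all below the Control tumors. Its log2 fold changes of -0.46 ± 0.12, adjusted p = 0.00245, and -0.54 ± 0.12, adjusted p = 7.39e-04, became -0.14 ± 0.11, adjusted p = 0.471, and -0.25 ± 0.11, adjusted p = 0.1, when corrected, and both calls ended. Combination against Palbociclib was -0.44 ± 0.10, adjusted p = 0.00155 as counted and -0.15 ± 0.10, adjusted p = 0.363 corrected. SHMT1 overlaps SMCR8 on the opposite strand, which had at most 443 counts in any library. The lowest SHMT1 count in any library was 194, not necessarily in the same library. The strand setting of the counting is not given in the sources used here.

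MTHFD1 (ENSG00000100714.15, chr14:64388031-64463457, + strand) was lower with Palbociclib, both against Control and on top of Telaglenastat. Its levels were 207, 206 and 219 CPM in Control tumors, 182, 139, 169, 177 and 156 with Palbociclib, 192, 167, 171 and 201 with Telaglenastat, and 158, 133, 129 and 132 with the Combination. All treated tumors lay below all Control tumors, and the Combination tumors below all Telaglenastat tumors. Against Control the log2 fold change was -0.35 ± 0.09, adjusted p = 0.0175, with Palbociclib, -0.21 ± 0.09, adjusted p = 0.0715, with Telaglenastat and -0.61 ± 0.09, adjusted p = 2.34e-05, with the Combination. Corrected values were -0.36 ± 0.09, adjusted p = 0.0113, then -0.32 ± 0.09, adjusted p = 0.0215, and -0.68 ± 0.09, adjusted p = 1.88e-05, in that order. Combination against Telaglenastat stood at -0.41 ± 0.09, adjusted p = 0.00262 (corrected -0.36 ± 0.09, adjusted p = 0.00703), and against Palbociclib at -0.26 ± 0.08, adjusted p = 0.0141 (corrected -0.32 ± 0.08, adjusted p = 0.0109). As for PHGDH, the Palbociclib call was lost as counted without any 1 of the 3 Control tumors (adjusted p = 0.0561, 0.0562 and 0.094), and when corrected without Control replicate 3 (adjusted p = 0.0599). It was also lost in 1 fit of all 28 libraries (adjusted p = 0.0503), as was the call of the Combination against Palbociclib (adjusted p = 0.197). The corrected Telaglenastat call was lost without Control replicate 2 or 3 or Telaglenastat replicate 2 or 3 (adjusted p from 0.0574 to 0.0855). ZBTB25, on the opposite strand, had at most 365 counts in any library, and the lowest MTHFD1 count in any library was 886.

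MTHFD2 (ENSG00000065911.11, chr2:74198562-74217565, + strand), the mitochondrial dehydrogenase and cyclohydrolase, was the most abundant member per library. It was 274, 286 and 272 CPM in Control tumors and 345, 330.2, 335 and 347 with Telaglenastat, which was above every Control tumor. With Palbociclib it was 232 to 286 (median 267) CPM and with the Combination 327, 334, 275 and 309.6 CPM. Its rise with Telaglenastat (0.29 ± 0.08, adjusted p = 0.00436) was not seen after correction (-0.01 ± 0.07, adjusted p = 0.955). The same held for the Combination over Palbociclib (0.25 ± 0.07, adjusted p = 0.0049, corrected 0.00 ± 0.06, adjusted p = 0.993). Combination against Control was not called (0.17 ± 0.08, adjusted p = 0.0942, corrected -0.04 ± 0.07, adjusted p = 0.73). As counted, it passed in DESeq2 (0.23, adjusted p = 0.0123) and in 1 edgeR fit of all 28 libraries (0.27, adjusted p = 0.0447). MTHFD1L (ENSG00000120254.15, chr6:150865549-151101887, + strand), which releases formate, was 112 to 114 CPM in Control, 108 to 121 in Palbociclib, 94.9 to 131 in Telaglenastat and 89.6 to 112 in Combination tumors. The highest Combination tumor (111.7) lay just below the lowest Control tumor (112.0), but log2 fold changes of -0.14 to 0.02 over the 5 tumor comparisons did not pass the threshold.

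ALDH1L2 (ENSG00000136010.13, chr12:105019784-105084577, - strand) was the rarest member, with 9 to 45 counts per tumor library. It was 2.92, 1.99 and 2.71 CPM in Control, 2.35 to 3.63 (median 2.89) in Palbociclib, 3.19, 6.27, 4.71 and 3.72 in Telaglenastat, and 2.54, 1.34, 2.56 and 2.53 in Combination tumors. The Telaglenastat tumors were above all Control and Combination tumors. The log2 fold change was 0.82 ± 0.33, adjusted p = 0.0438, for Telaglenastat against Control and -0.99 ± 0.31, adjusted p = 0.0294, for Combination against Telaglenastat. Both calls ended after correction (0.49 ± 0.33, adjusted p = 0.39, and -0.84 ± 0.31, adjusted p = 0.0727). The former was also lost without any 1 of the Control tumors or without Telaglenastat replicate 2 or 3 (adjusted p from 0.0592 to 0.158), the latter without Telaglenastat replicate 2 or 3 or Combination replicate 2 (adjusted p from 0.0618 to 0.118). C12orf45, on the opposite strand, had up to 412 counts in a library.

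Counted over the 9 members, 2 were called with Palbociclib against Control, both lower, where 6.16% of all 14848 genes were called and 3.6% were lower. With Telaglenastat 5 were called, 3 lower and 2 higher, against 51.1% of all genes (28.5% lower, 22.6% higher). With the Combination 4 were called, all lower, against 44.5% (26.9% lower). Combination against Palbociclib called 6 members, 4 lower and 2 higher, against 47.6% (27.5% lower, 20.1% higher). Combination against Telaglenastat called 3, all lower, against 18.8% (9.89% lower). When corrected, the counts were 2, 2, 3, 3 and 3 in the same order, all lower, where 4.02%, 7.48%, 13.1%, 7.6% and 6.99% of all genes were lower. The median member differed from Control by -0.09, -0.05 and -0.18 log2 units with Palbociclib, Telaglenastat and the Combination, and the median of all genes by 0.00, 0.03 and -0.04. Corrected, the median member differed by -0.04, -0.11 and -0.25. With Telaglenastat as counted, the 2 members called higher (ALDH1L2 and MTHFD2) had the lowest GC contents of the 9 and the 3 called lower (SHMT1, PHGDH and SHMT2) the highest.

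Whether both drugs together changed a member by other than the sum of the single log2 changes was tested as a departure from additivity. edgeR called no member (adjusted p from 0.374 to 0.994), where 0.0673% of all genes were called, and 1 of 9 had an unadjusted p under 0.05. DESeq2 called none of the 8 members to which it gave an adjusted p, where it called 1.15% of genes. For PHGDH the departure was 0.02 ± 0.30 log2 units, and -0.01 ± 0.24 corrected. ALDH1L2 had the largest value of the 9 members (-1.23 ± 0.44, adjusted p = 0.374).

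**Figure D2:**
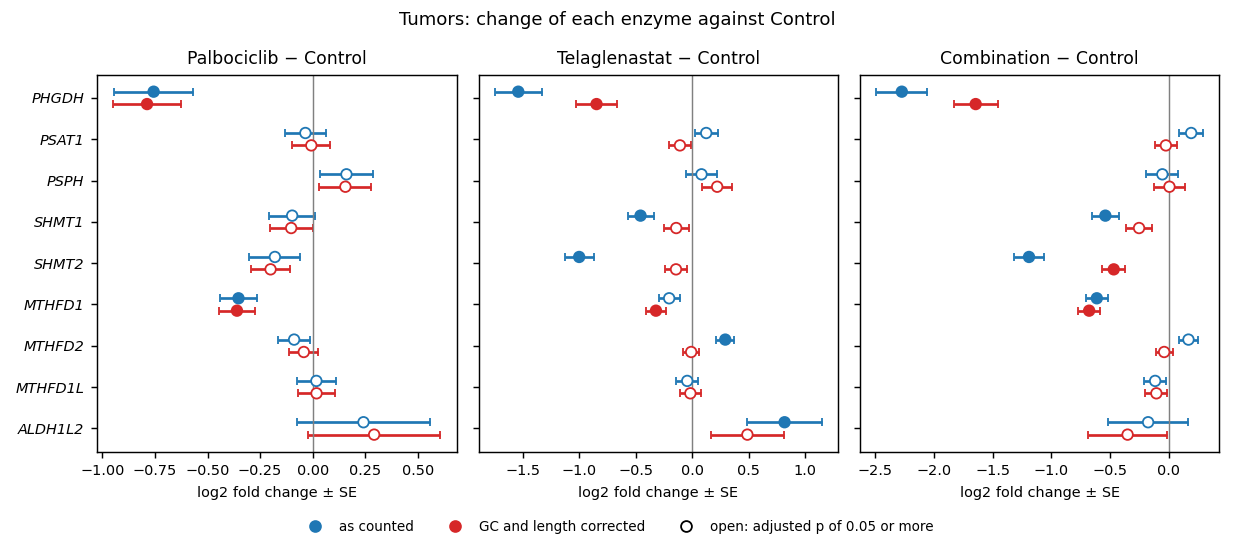
Log2 fold change against Control (horizontal axis, bars 1 SE) of each enzyme in Palbociclib, Telaglenastat and Combination tumors, as counted and corrected for GC content and gene length. Filled points passed an adjusted p of 0.05. PHGDH is filled on both scales in all 3 panels, SHMT1 and SHMT2 move toward 0 with correction for Telaglenastat, and MTHFD1 is filled on both scales for Palbociclib and the Combination.

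Other genes of serine and folate metabolism were read from lists. Counts in these lists are to be read beside the shares of all genes called given above. The share of all genes called higher when corrected is not given. Of 8 genes for folate uptake and activation, 4 were lower and 3 higher with Telaglenastat, and 1 was lower when corrected. FPGS, which adds the glutamate tail that retains folates in cells, went from 22.3 to 23.8 CPM in Control to 3.87 to 6.27 CPM (-2.21 ± 0.21, adjusted p = 6.87e-08, corrected -0.84 ± 0.18, adjusted p = 0.0038). The reduced folate carrier SLC19A1 (-1.34 ± 0.25, adjusted p = 2.00e-04) was at 0.08 ± 0.22, adjusted p = 0.871, when corrected. The Combination had 4 lower and 2 higher as counted (2 and 0 corrected), with FPGS at 5.4 to 8.21 CPM (-1.79 ± 0.20, adjusted p = 8.53e-07, corrected -0.66 ± 0.18, adjusted p = 0.00908).

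Of 9 genes for folate-dependent reactions 7 were tested, and TYMS, thymidylate synthase, alone was called with Palbociclib (-0.81 ± 0.09, adjusted p = 1.60e-05, corrected -0.82 ± 0.09, adjusted p = 1.69e-05). TYMS was 158 to 168 CPM in Control, 78.8 to 104 with Palbociclib, 150.2 to 162 with Telaglenastat and 81.2 to 112 with the Combination. The groups that received Palbociclib lay apart from Control, and Telaglenastat overlapped it. Telaglenastat had 4 of these genes higher and 1 lower, and none was called when corrected. Of 4 glycine cleavage genes, 1 was lower with Palbociclib, and 1 was lower and 2 higher both with Telaglenastat (1 and 0 corrected) and with the Combination (1 and 1 corrected). GLDC, which decarboxylates glycine in the glycine cleavage system, was 6.86 to 11.5 CPM in Control, 3.21 to 6.39 with Palbociclib, 4.1 to 7.29 with Telaglenastat and 3.88 to 6.11 with the Combination. It was lower with Palbociclib (-0.94 ± 0.26, adjusted p = 0.0306), Telaglenastat (-0.74 ± 0.27, adjusted p = 0.0294) and the Combination (-0.89 ± 0.27, adjusted p = 0.0121), and these calls were kept when corrected (adjusted p = 0.0204, 0.0476 and 0.0138).

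Among 7 serine and glycine transporters none was called with Palbociclib, 3 were lower and 1 higher with Telaglenastat (1 and 0 corrected), and 2 were lower with the Combination (2 lower and 1 higher corrected). The neutral amino acid carrier SLC1A5, which also imports glutamine, was 89.1 to 108 CPM in Control and 68.1 to 96.5 with Palbociclib. It was 28.98 to 38.0 CPM with Telaglenastat (-1.52 ± 0.11, adjusted p = 6.35e-09, corrected -0.50 ± 0.09, adjusted p = 8.60e-04) and 37.3 to 39.2 CPM with the Combination (-1.34 ± 0.11, adjusted p = 3.93e-08, corrected -0.52 ± 0.09, adjusted p = 3.36e-04). Of 7 tested genes for serine use, 2 were lower and 3 higher with Telaglenastat (1 and 0 corrected), and 2 and 2 with the Combination (1 and 2 corrected). With Palbociclib none was called as counted and 1 was higher corrected. SDSL, a serine dehydratase-like enzyme, showed the widest difference, at -2.87 ± 0.41, adjusted p = 1.04e-05, with Telaglenastat (corrected -1.57 ± 0.39, adjusted p = 0.00934) and -2.95 ± 0.42, adjusted p = 1.05e-05, with the Combination (corrected -1.93 ± 0.39, adjusted p = 0.00112). Of 5 tested genes of the methionine cycle, none was called with Palbociclib, 1 was lower and 2 were higher with Telaglenastat (0 and 0 corrected), and 1 and 2 with the Combination (0 and 2 corrected). MAT2A, which makes S-adenosylmethionine, was higher with the Combination (0.67 ± 0.12, adjusted p = 9.72e-05, corrected 0.49 ± 0.12, adjusted p = 0.0049).

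Of ATF4 and 7 known targets, none was called with Palbociclib, 6 of 8 were lower with Telaglenastat and 3 of 8 with the Combination. When corrected, these became 3 higher and 1 lower with Telaglenastat, and 3 higher and 2 lower with the Combination, so that the direction of the list depended on the scale. PCK2, the mitochondrial carboxykinase, was lower with Telaglenastat on both (-1.68 ± 0.19, adjusted p = 4.52e-07, corrected -0.54 ± 0.18, adjusted p = 0.0455). MYC turned from -0.43 ± 0.11, adjusted p = 0.00246, to 0.39 ± 0.12, adjusted p = 0.0339, with Telaglenastat. All 7 proliferation genes were lower with Palbociclib and with the Combination on both scales. MKI67, a marker of cycling cells, was 449.8 to 538 CPM in Control, 209.6 to 274 with Palbociclib, 465 to 573 with Telaglenastat and 176 to 270.5 with the Combination. With Telaglenastat 3 proliferation genes were higher and 1 lower as counted, and none was called when corrected.

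Likeness over the 16 tumors was read as Pearson's r of log2 CPM, a description over tumors that share treatments and the GC trend. For PHGDH the 3 closest genes were PPP5C (r = 0.963), PTBP1 (0.961) and TUBA1C (0.96). Over the 12 cultures the same pairs had r of 0.428, 0.48 and -0.06. Corrected, PTBP1 was at 0.405 in tumors and TUBA1C at 0.933. SHMT2 was closest to TK1, the thymidine kinase of dividing cells (0.988 in tumors, 0.893 corrected, 0.833 in cultures). MTHFD1 was closest to CIT (0.954), NCAPD2 (0.951) and GTSE1 (0.949), which act in cell division. These were at 0.886, 0.859 and 0.847 corrected, and 0.456, 0.779 and 0.651 in cultures. The closest genes were CDC123 for PSAT1 (0.919), EIF3C for PSPH (0.789), BAP1 for SHMT1 (0.943), COPS3 for MTHFD2 (0.954), PTPRJ for MTHFD1L (0.774) and CMPK2 for ALDH1L2 (0.848). In that order the corrected r was 0.828, 0.543, 0.798, 0.653, 0.695 and 0.679. Over the cultures it was -0.491, 0.11, 0.426, -0.204, -0.01 and -0.246. Between members, corrected PHGDH and MTHFD1 had r of 0.93 over the tumors, while PHGDH and PSAT1 had -0.48 as counted and 0.25 corrected.

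Between tumors and cultures other members stood out. Control tumors and Control cultures were compared on CPM scaled over all 28 libraries. PSAT1 was 73.6, 78.5 and 80.5 CPM in Control tumors and 464, 470.2 and 566 in Control cultures. MTHFD2 was 255, 269.6 and 254 CPM against 852, 873 and 885 CPM. PSPH was 17.3, 23.04 and 22.5 CPM against 50.2, 51.3 and 52.7 CPM. In each case all tumors were below all cultures, where the share of all genes without overlap is not given. The log2 difference, tumors minus cultures, was -2.69 ± 0.17, adjusted p = 2.02e-12, for PSAT1, a 6.45-fold difference, -1.75 ± 0.12, adjusted p = 3.27e-12, for MTHFD2 and -1.30 ± 0.16, adjusted p = 2.29e-07, for PSPH. MTHFD1L (-0.79 ± 0.11, adjusted p = 1.07e-06) and MTHFD1 (-0.56 ± 0.12, adjusted p = 2.34e-04) were lower in tumors too.

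In all, 5 of 9 members were lower in tumors and none higher, where 45.9% of 15466 genes were called and 22.8% were lower. When corrected, PHGDH (-0.96 ± 0.27, adjusted p = 0.00525) and SHMT2 (-0.50 ± 0.10, adjusted p = 3.02e-04) joined them, to 7 of 9 where 22.7% of all genes were lower. As counted they stood at -0.44 ± 0.35, adjusted p = 0.322, and 0.05 ± 0.17, adjusted p = 0.842. When the corrected fit also held a term for the replicate number, PHGDH was not called. In that fit MTHFD1 lost its call (-0.38, adjusted p = 0.0674). SHMT1 (-0.02 ± 0.14, adjusted p = 0.922) and ALDH1L2 (-0.71 ± 0.47, adjusted p = 0.223) did not pass the threshold on either scale, although all Control tumors (1.88 to 2.72 CPM) were below all Control cultures (2.8 to 4.74 CPM) for ALDH1L2. Per kilobase of the principal transcript, the Control tumors held MTHFD1 highest (62.9 ± 1.93 CPM per kb, SD, n = 3), followed by MTHFD2 (58.2 ± 1.98), SHMT2 (54.6 ± 6.08), PSAT1 (35.4 ± 1.64), MTHFD1L (29.3 ± 0.132), SHMT1 (19.6 ± 0.79), PHGDH (18.8 ± 1.25), PSPH (9.62 ± 1.47) and ALDH1L2 (0.315 ± 0.06). The range of SHMT2 overlapped those of MTHFD1 and MTHFD2, and the range of PHGDH that of SHMT1. In Control cultures PSAT1 (229 ± 26.3 CPM per kb) and MTHFD2 (195 ± 3.78) led, ahead of MTHFD1 (93.0 ± 3.52).

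Of ATF4 and its 7 listed targets 4 were lower in Control tumors than in Control cultures (6 when corrected) and none higher, among them ASNS (-2.46 ± 0.30, adjusted p = 1.92e-07) and CHAC1 (-3.54 ± 0.65, adjusted p = 6.17e-05). All 7 proliferation genes were lower as well. Culture medium, growth without a host and the presence of host cells all differ between these groups and cannot be told apart. Fibroblast marker sums, carried mainly by collagen genes, were 151 to 192 CPM in Control tumors and 4.22 to 5.34 CPM in Control cultures. Leukocyte sums were 14.4 to 19.6 and 0.384 to 2.56 CPM.

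**Figure D3:**
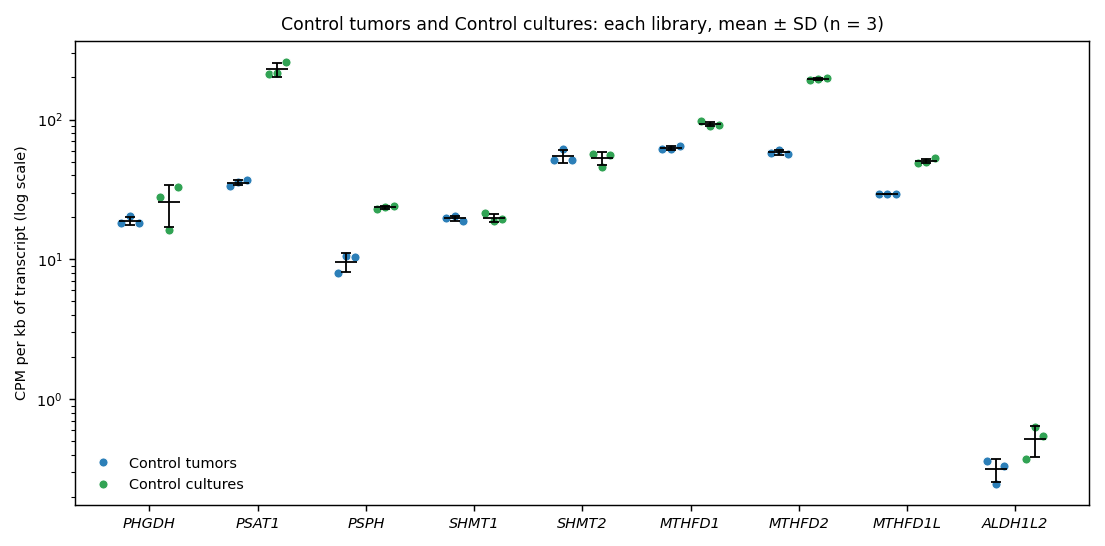
Level of each enzyme in 3 Control tumors and 3 Control cultures, in CPM per kb of the principal transcript on a log axis, scaled over all 28 libraries. Points are libraries, and the bars give the mean and 1 SD. PSAT1, PSPH, MTHFD1, MTHFD2, MTHFD1L and ALDH1L2 are higher in cultures with no overlap, the last without passing the test, and PHGDH, SHMT1 and SHMT2 overlap. The share of all genes without overlap is not given.

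In cultures, grown without drug, edgeR called no member in the 5 comparisons (adjusted p from 0.323 to 1). The share of all 13985 genes called was 0.00715% for Combination against Control and 0% for the other 4. At an unadjusted p under 0.05 there was 1 member in the 5 comparisons together, SHMT2 for Combination against Telaglenastat (-0.49 ± 0.19). DESeq2 called no member to which it gave an adjusted p, with 5 members left without one for Telaglenastat against Control. The share of genes it called against Control was 0% in Palbociclib lines, 0.841% in Telaglenastat lines and 0.00647% in Combination lines. It was 0.00971% between Combination and Palbociclib lines and 0.766% between Combination and Telaglenastat lines.

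PHGDH was 69.8, 40.5 and 81.4 CPM (scaled within cultures) in Control lines, 42.2, 66.7 and 25.0 in Palbociclib lines, 90.5, 156 and 41.5 in Telaglenastat lines and 82.4, 41.1 and 62.4 in Combination lines. All 4 groups overlapped. The highest value, in Telaglenastat line 2, came from the library with the highest GC slope among cultures (0.426, against -0.136 to 0.180 in the other 11), which also held the highest SHMT2 (227 CPM). PSAT1 was 449, 452 and 544 CPM in Control lines and above all of them in the Telaglenastat (552, 614 and 551) and Combination lines (679, 546 and 644). MTHFD2 likewise was 826, 840.0 and 850.4 CPM in Control, 928, 963 and 1004 in Telaglenastat and 1042, 938 and 1100.4 in Combination lines. Neither gene passed the test, with log2 fold changes of 0.37 ± 0.20, adjusted p = 0.681, and 0.29 ± 0.14, adjusted p = 0.681, for Combination against Control. ALDH1L2 was 2.71, 4.56 and 3.97 CPM in Control, 12.9, 6.81 and 3.9 in Telaglenastat and 9.98, 4.97 and 7.39 in Combination lines. PSPH was 48.7 to 50.6 CPM in Control and 51.7 to 61.6 in Telaglenastat lines. SHMT2 was 113 to 139 CPM in Control, 85.4 to 112 in Palbociclib, 127 to 227 in Telaglenastat and 109 to 124 in Combination lines. Over the 5 comparisons, 8 of 45 pairs of groups did not overlap, which were PSAT1 and MTHFD2 in Telaglenastat and Combination lines, PSPH in Telaglenastat lines and ALDH1L2 in Combination lines (all above Control), SHMT2 in Palbociclib lines (below Control) and SHMT2 between Combination and Telaglenastat lines. Over all 13985 genes 15.2% of such pairs did not overlap, and no pair of a member passed the test. As counted, SHMT1, MTHFD1 and MTHFD1L overlapped in every one of these comparisons. Corrected, PSAT1 in Telaglenastat and Combination lines, MTHFD2 in Combination lines and SHMT2 in Palbociclib lines overlapped Control. SHMT2 of Combination and Telaglenastat lines also overlapped. Corrected SHMT2 instead lay above Control in Telaglenastat and Combination lines and above Palbociclib in Combination lines. Corrected MTHFD1 lay below Control in Combination lines. No member was called when corrected, and the share over all genes is not given on this scale.

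In the Palbociclib lines most members shared an order. In lines 1, 2 and 3, PSAT1 was 532, 717 and 342 CPM, MTHFD2 was 985, 1158 and 744 CPM, and ALDH1L2 was 4.57, 9.51 and 1.71 CPM. Line 2 was highest and line 3 lowest for 7 of the 9 members (all but SHMT1 and MTHFD1) and for all 8 genes of the ATF4 list, an order that 20.5% of the 13985 tested genes had. ASNS, asparagine synthetase and a known ATF4 target, was 382, 624 and 199 CPM in these lines. Their GC slopes were close, from -0.136 to -0.104. The order was noticed in the values and carries no test. In the Combination lines, line 2 was lowest for 7 of 9 members and for 7 of 8 ATF4 list genes, with PSAT1 at 679, 546 and 644 CPM, where this line was lowest for 33.6% of all tested genes. By the same measure, Control line 1 was lowest for 5 of 9 members and 0 of 8 ATF4 list genes (25.7% of all genes). Control line 2 was lowest for 4 of 9 and 8 of 8 (41%), and Telaglenastat line 1 for 5 of 9 and 5 of 8 (33.2%). No full order of the 3 lines held for more than 4 of 9 members in Control or Combination lines. In Telaglenastat lines none held for more than 3. Over the 12 cultures PSAT1 had Pearson's r of 0.92 with MTHFD2 and 0.83 with ALDH1L2, while MTHFD1 had values from -0.53 to 0.26 with the other 8.

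**Figure D4:**
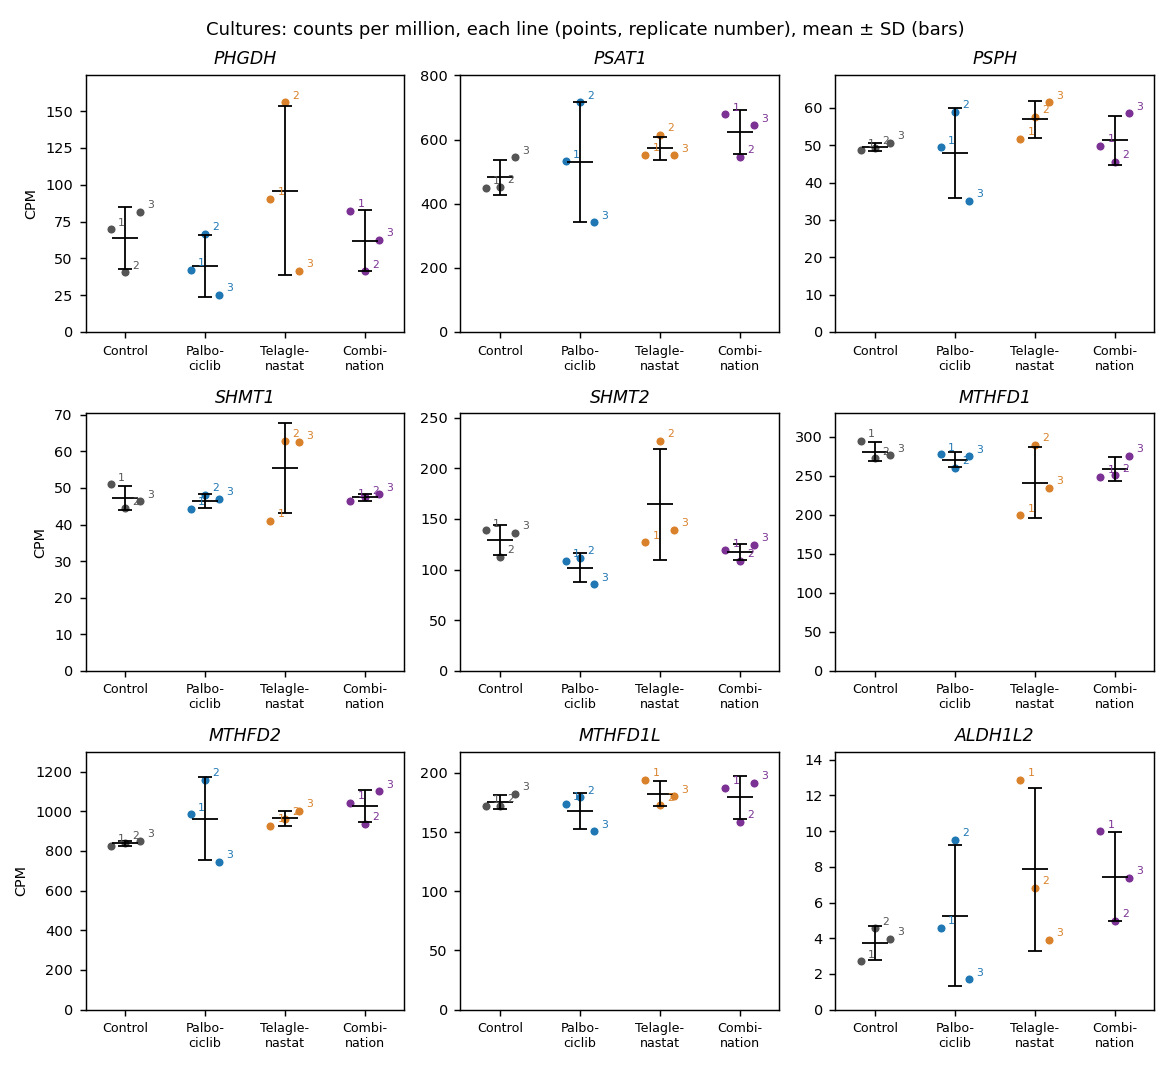
Level of each enzyme in every culture, in CPM scaled within cultures, by treatment of the tumor of origin (horizontal axis). Points are lines, and the bars give the mean and 1 SD. Palbociclib line 2 is highest and line 3 lowest of its group for 7 of 9 enzymes, and PHGDH ranges from 25.0 to 156 CPM.

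The difference of each treatment effect between tumors and cultures was tested as an interaction in 1 fit of all libraries. For Telaglenastat 3 members passed, all with a more negative effect in tumors, where 34.1% of 15466 genes passed and 18.5% were more negative. They were PHGDH (-2.04 ± 0.50, adjusted p = 0.00278), SHMT2 (-1.26 ± 0.24, adjusted p = 4.05e-04) and SHMT1 (-0.60 ± 0.19, adjusted p = 0.0143). PHGDH alone was called when corrected (-1.37 ± 0.38, adjusted p = 0.0371, where 2.59% of all genes were more negative). The SHMT1 call was lost without Telaglenastat line 2 (adjusted p = 0.0625). For the Combination 2 members passed, PHGDH (-2.13 ± 0.51, adjusted p = 0.0256, corrected -1.79 ± 0.39, adjusted p = 0.0107) and SHMT2 (-0.95 ± 0.24, adjusted p = 0.0313, corrected -0.57 ± 0.14, adjusted p = 0.0306), against 2.91% of all genes (0.795% more negative, 1.24% when corrected). As counted, neither was called without Control tumor 2 or 3, Control line 2, or Combination line 1 or 3 (adjusted p from 0.0507 to 0.109). The SHMT2 call alone was lost without Control tumor 1 (adjusted p = 0.0526) or Combination tumor 3 (0.0521). The PHGDH call alone was lost without Combination tumor 2 (adjusted p = 0.0549). For Palbociclib edgeR called no member (adjusted p from 0.371 to 0.909, none at an unadjusted p under 0.05), where 1.39% of all genes passed. DESeq2 called none of the 8 members with an adjusted p, where it called 5.23% of genes, and had 2 members at an unadjusted p under 0.05. PHGDH was at -0.23 ± 0.48.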

How the data were processed

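Gene counts of 16 tumor and 12 culture libraries were used as deposited by the authors. Poly(A) RNA was made into dUTP libraries and sequenced as single-end reads, and the submitters' notes name CASAVA 1.8, STAR and the hg38 build. The counting tool and its strand setting are not given in the sources used here. Of 58278 row IDs, 57940 matched GENCODE release 29.

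Groups came from the labels. Tumors (14848 genes) and cultures (13985) were fitted separately, and tumors against cultures and the interactions in 1 fit of 28 libraries (15466), with edgeR 4.0.16 in R 4.3.3 (TMM, filterByExpr with a minimum count of 10, quasi-likelihood test). p was adjusted over all genes tested by Benjamini and Hochberg's method, and a gene was called at an adjusted p under 0.05. Where labels do not name separate animals, p measures the spread between libraries only. The corrected fit removed, through offsets, each library's trend of expression with GC content and with gene length (splines with 5 degrees of freedom each). CPM levels were scaled within tumors or within cultures, or over all 28 libraries where named. Alternatives included DESeq2 1.42.0, other filters and size factors, a replicate block and leaving out each library. Leave-one-out fits on the corrected scale were chosen after seeing the data. The edgeR fits, as counted and corrected, were tested on simulated tumor counts. That simulation held no GC trend, so it does not show how the correction acts where trend and treatment coincide.

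The 9 members, the gene lists and the markers were chosen with earlier results of these data known. Named from a list were genes among the 3 with the largest absolute log2 fold change of those called in a comparison. For likeness, they were the genes of highest correlation with a member over the tumors (mean log2 CPM of at least 1). ALDH1L2, with 9 to 45 counts per tumor library, had the fewest counts of the members. The result of 1 listed gene is not reported here.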

Additional observations from a re-analysis of the deposited data

Results flagged for a closer look

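In groups of 4 or 5 tumors, 1 library stood apart from the others by Dixon's test for 3 of 27 combinations of member and treatment, where chance gives about 1 in 20. PSAT1 was 76.5 CPM in Telaglenastat tumor 2, below the other 3 of its group. MTHFD1 was 158 CPM in Combination tumor 1, above the others. ALDH1L2 was 1.34 CPM in Combination tumor 2, below the others.

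The effect of a treatment differed between tumors and cultures by the interaction test for PHGDH, SHMT1 and SHMT2 with Telaglenastat (log2 differences of -2.04, -0.60 and -1.26) and for PHGDH and SHMT2 with the Combination (-2.13 and -0.95). All 5 were more negative in tumors. Corrected for GC content and length, the calls on SHMT1 and SHMT2 with Telaglenastat ended.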

How the results depend on the processing

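Of 312 alternative counts of called members, 282 stayed within the tolerance of the main count and 30 moved. Of 2791 alternatives for single members, 2677 kept their side of the threshold, 87 lost a call, 20 gained one and 7 reversed. Changes of sign in uncalled members, 198 in all, were not counted as reversed. No alternative run brought a call on PSPH or MTHFD1L or ended one. Where a cause is not given by the construction of the alternative, the cause was not tested.

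With correction for GC content and length, 2 members were called for Telaglenastat against Control (5 as counted), 3 for Combination against Palbociclib (6) and 1 for the difference of Telaglenastat between tumors and cultures (3). Among members called on either scale, the sign turned for MTHFD2 with Telaglenastat (-0.010), PSAT1 for Combination against Palbociclib (-0.019) and SHMT2 between tumors and cultures (-0.50). It also turned for members called on neither, such as PSAT1 with Telaglenastat (0.12 to -0.11). In 1 fit of all 28 libraries, 0 members were called for Palbociclib against Control and 1 for Combination against Telaglenastat. Without the filter on low counts, 1 member was called in cultures for Telaglenastat against Control (PHGDH, 0.62, adjusted p = 0.0243) and 2 for Combination against Telaglenastat (PHGDH, -0.66, and SHMT2, -0.50).

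Same-numbered libraries did not deviate together (r of -0.128 to 0.0896 over 21 pairs of tumors and -0.423 to 0.14 over 18 pairs of cultures), and 6 of 15 tumors and 1 of 12 cultures correlated best with their own number, so the numbers were not taken as pairs. With the replicate block, 1 member was called for the Combination between tumors and cultures (2 without it), as also with the block and correction together (1). The replicate block with correction called 2 for Telaglenastat, 2 for Combination against Palbociclib and 0 for the Telaglenastat difference, with MTHFD2 at -0.0058 for Telaglenastat and -0.027 for Combination against Palbociclib, PSAT1 at -0.018 for the latter and SHMT2 at -0.45 between tumors and cultures.

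Leaving out 1 library gave 0 to 2 called members for Palbociclib (1 to 2 corrected), 4 to 6 for Telaglenastat (1 to 2 corrected), 4 to 5 for the Combination, 5 to 6 for Combination against Palbociclib and 1 to 3 against Telaglenastat. It gave 0 to 1 for Combination against Telaglenastat in cultures (SHMT1 without Telaglenastat line 1, adjusted p = 0.0477), 5 in each case for tumors against cultures, 2 to 3 for the Telaglenastat difference and 0 to 2 for the Combination difference. ALDH1L2 had the fewest counts of the members, and the part of depth in its lost calls was not tested.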
